A study of Mus musculus with 7 samples.

Results

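Short gaps between lamin-associated domains (LADs) are small islands of the genome that were not called lamina-bound although lamina-bound chromatin lies on either side of them. On mouse chromosomes 1 to 19, a short gap was defined as the interval of at most 250 kb between the end of a LAD and the start of the next; the gaps were thus chosen by their measured length and the LAD calls. This gave 519 of the 1109 autosomal gaps, and 1416 gaps were present on all chromosomes. The series profiled mouse embryonic fibroblasts, named iMEF in the labels, with CUT&RUN, which frees the DNA around a target protein with a nuclease guided there by an antibody. The 7 libraries comprised 2 for Lamin B1, a filament protein of the nuclear lamina, 2 for IgG as the control, 1 for H3K9me2 with each of 2 antibodies, and 1 for H3K14ac. The fibroblasts are described as lines derived separately from a single colony of mice, although the labels name 1 line, no treatment is labelled, and wild type is stated only in the title of the LAD list. That list, titled as merged and taken here to rest on both Lamin B1 libraries, and the positions of annotated genes are the base of all values below. The list carries no expression values, so the fibroblast identity of the cells was not checked, and values of the other libraries were not used here.

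Chromatin at the nuclear lamina is mostly poor in genes, replicates late and carries H3K9 methylation, and most genes inside it are silent. The genome alternates between such domains and the chromatin of the nuclear interior, where most broadly expressed genes lie. A promoter with many CpG dinucleotides, a CpG island, is typical of genes used in most cell types, whereas promoters of tissue-restricted genes often hold few. Short gaps differ from the nuclear interior in their setting, since a LAD begins within 250 kb of every point in them.

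One of the most deeply embedded islands held no protein-coding gene but a microRNA cluster, whose sequences are shown here, and the long noncoding RNA gene Mir17hg (2.34 kb). This gap, at chr14:115018458-115070957 (mm10), measured 52.5 kb, the minimum, which 7 gaps shared, and lay between LADs of 9.06 Mb, the longest beside any short gap, and 3.03 Mb. The 6 microRNA genes of the miR-17 cluster (Mir17, Mir18, Mir19a, Mir20a, Mir19b-1 and Mir92-1), processed from a common transcript and known for promoting proliferation, occupied 0.836 kb in it. They began 25.2 kb from the left border and ended 26.5 kb from the right border, which put them near the middle. The mature sequences, from RefSeq on GRCm38.p6 (the same build as mm10), are given with the seed, bases 2 to 8, in capitals. miR-17-5p and miR-20a-5p share a seed, and so do miR-19a-3p and miR-19b-3p.
miR-17-5p: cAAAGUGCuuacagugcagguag
miR-20a-5p: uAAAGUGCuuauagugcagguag
miR-18a-5p: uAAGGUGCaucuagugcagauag
miR-19a-3p: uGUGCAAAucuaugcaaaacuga
miR-19b-3p: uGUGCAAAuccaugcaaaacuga
miR-92a-3p: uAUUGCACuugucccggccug

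Promoters from islands and from the LADs beside them are shown next, because the share of CpG-rich promoters differed between islands and domains. Each run covers 250 bases before and 50 bases after a RefSeq start site (GRCm38.p6), on the strand of the gene, with CpG dinucleotides in capitals. Cdc73 (chr1:143702844-143703143, minus strand) and Jag1 (chr2:137116471-137116770, minus strand) lay in gaps. So did Vrk2 (chr11:26593871-26594170, minus strand), the one with the fewest CpG dinucleotides among 6 leading genes of the most deeply embedded gaps. Rgs2 (chr1:144004100-144004399, minus strand) and G6pd2 (chr5:61808593-61808892, plus strand) lay in LADs that border such gaps. Their distances to the centre of the gap were 310.9 kb for Rgs2 and 4046.7 kb for G6pd2.
Cdc73: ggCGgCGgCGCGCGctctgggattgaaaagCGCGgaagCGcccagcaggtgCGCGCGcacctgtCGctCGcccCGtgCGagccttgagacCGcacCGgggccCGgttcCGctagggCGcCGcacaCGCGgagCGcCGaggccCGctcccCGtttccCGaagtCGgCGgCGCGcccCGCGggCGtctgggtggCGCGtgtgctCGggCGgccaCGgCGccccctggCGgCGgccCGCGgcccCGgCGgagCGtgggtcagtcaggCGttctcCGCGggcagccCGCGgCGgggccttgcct
Jag1: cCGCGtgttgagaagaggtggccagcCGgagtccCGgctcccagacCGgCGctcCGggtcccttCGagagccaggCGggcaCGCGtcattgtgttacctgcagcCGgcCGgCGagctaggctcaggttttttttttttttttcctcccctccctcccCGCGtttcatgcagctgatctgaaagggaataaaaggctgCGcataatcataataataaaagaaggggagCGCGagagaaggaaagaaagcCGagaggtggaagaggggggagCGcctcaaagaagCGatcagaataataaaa
Vrk2: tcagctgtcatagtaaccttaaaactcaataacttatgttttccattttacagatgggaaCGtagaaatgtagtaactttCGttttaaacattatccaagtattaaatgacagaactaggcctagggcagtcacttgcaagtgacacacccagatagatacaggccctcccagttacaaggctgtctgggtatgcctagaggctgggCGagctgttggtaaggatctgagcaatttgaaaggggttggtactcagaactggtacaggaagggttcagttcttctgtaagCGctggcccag
Rgs2: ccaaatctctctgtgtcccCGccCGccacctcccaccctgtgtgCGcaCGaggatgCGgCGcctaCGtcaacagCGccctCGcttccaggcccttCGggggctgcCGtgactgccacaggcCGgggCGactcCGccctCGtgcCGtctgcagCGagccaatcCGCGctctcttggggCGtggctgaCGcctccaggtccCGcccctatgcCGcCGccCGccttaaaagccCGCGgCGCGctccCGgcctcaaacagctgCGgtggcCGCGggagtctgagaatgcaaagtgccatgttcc
G6pd2: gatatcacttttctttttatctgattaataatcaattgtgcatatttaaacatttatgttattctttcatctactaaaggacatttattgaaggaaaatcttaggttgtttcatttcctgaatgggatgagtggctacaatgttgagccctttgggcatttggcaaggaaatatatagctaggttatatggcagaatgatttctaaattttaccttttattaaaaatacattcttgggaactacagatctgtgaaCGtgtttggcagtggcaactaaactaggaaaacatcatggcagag
The Cdc73 promoter held 54 CpG dinucleotides, that of Jag1 22 and that of Vrk2 4. Sel1l, Flrt2 and Parp8, the other leading genes, had 20, 14 and 37. In the flanking LADs, Rgs2 held 33 and Gtf2a1 22, and G6pd2 held 1. Single promoters of the domains thus held as many CpG dinucleotides as those of some islands, and the difference given further on is one of proportions.

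The short gaps covered 70.4 Mb, against 1177.5 Mb of autosomal LADs and 1122.0 Mb of longer gaps. They made up 46.8% of the autosomal gaps but 5.90% of the bases in gaps. Their lengths, which the rule bounded, ranged from 52.5 to 250 kb with a median of 120.0 kb and quartiles of 90.0 and 182.5 kb. Just inside the limit were a gap of 250 kb on chromosome 12 (Msgn1, Gen1 and Smc6) and gaps of 247.5 kb on chromosomes 11 (Hs3st3b1 and Cox10) and 14 (Rbm26 and Ndfip2). Just outside were gaps of 252.5 kb on chromosomes 1 (1700016C15Rik and Adss) and 18 (Srfbp1, Lox, Zfp474 and 1700034E13Rik) and 255.0 kb on chromosome 13, without a protein-coding gene. Among the 7 gaps of 52.5 kb, the minimum, were the one on chromosome 14, one on chromosome 1 that held Pcmtd1 and one on chromosome 13 that held Mtrr and Fastkd3.

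Many islands bordered a small domain on at least 1 side. The shorter of the flanking LADs had a median of 195.0 kb and the longer 1052.5 kb. In 327 gaps (63%) both flanking LADs were at least as long as the gap, in 121 both reached 500 kb, and in 46 both reached 1 Mb. In 162 gaps a flanking LAD was under 100 kb. Gaps also followed each other: 386 of the 519 lay in runs of 2 or more short gaps separated by single LADs, and 133 stood alone. The longest run had 10 gaps and spanned 16.7 Mb of chromosome 4 (64118221 to 80810667), with midpoints of only Pappa, Tlr4 and Tle1 in its gaps. The next, with 8 gaps, lay on the same chromosome (12228386 to 21695854) and held Runx1t1, Nbn, Osgin2 and Ripk2. A run of 7 gaps across 18.5 Mb of chromosome 16 (67251955 to 85749395) held Usp25, Cxadr, Mrpl39, Jam2, Atp5j and Gabpa.

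A total of 654 protein-coding genes had their midpoint in a short gap, which was 3.16% of 20665 on the autosomes. This corresponded to 9.29 genes per Mb, compared with 4.01 per Mb in LADs and 13.0 per Mb in longer gaps. Over the 19 autosomes the density averaged 9.37 ± 3.17 per Mb (SD, n = 19 chromosomes) in short gaps, 3.96 ± 1.79 in LADs and 13.0 ± 3.43 in longer gaps. The SD is over chromosomes and is not an error between replicates. Short gaps were denser in genes than LADs on each of the 19 chromosomes, and less dense than longer gaps on 17. The exceptions were chromosome 6, with 15.3 per Mb in short gaps and 11.3 in longer gaps, and chromosome 13, with 9.61 and 8.95. Chromosome 4 had the lowest density in short gaps, 5.43 per Mb over 57 gaps, and chromosome 7 the highest, 18.6 per Mb over 29 gaps. With 1 merged list there is no replicate of a gap, so these differences were described and not tested.

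**Figure D1:**
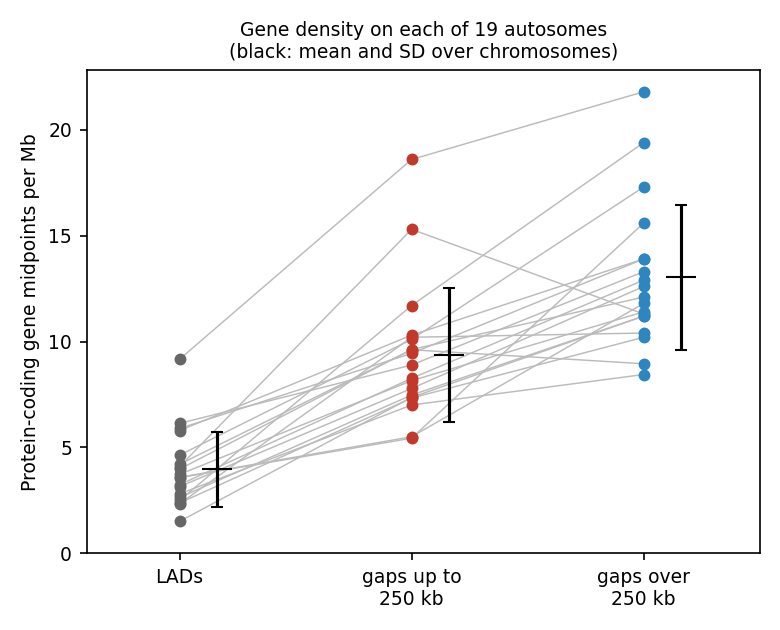
Protein-coding gene midpoints per Mb (vertical axis) in LADs, in gaps up to 250 kb and in gaps over 250 kb. Each point is 1 of 19 autosomes, grey lines join the same chromosome, and black marks give the mean and SD over chromosomes. Short gaps lie above LADs on each chromosome, with means of 9.37 and 3.96 per Mb.

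Most islands held few genes. No protein-coding midpoint fell in 207 gaps (39.9%), 1 in 150 (28.9%), 2 in 76 (14.6%), 3 in 41 (7.90%) and 4 or more in 45 (8.67%). Counting any overlap of at least 1 bp, 414 gaps (79.8%) touched a protein-coding gene, against 89% of all 1109 autosomal gaps. This share differed with length, from 70.8% of 195 gaps up to 100 kb to 88.1% of 101 gaps between 200 and 250 kb. It did not decline where the embedding LADs were longer. Among gaps with a flanking LAD under 100 kb, 75.3% touched a gene and the density was 8.24 per Mb. In the 46 gaps with at least 1 Mb of LAD on both sides, 87% did and the density was 10.7 per Mb. The median gap length was close in these classes, 122.5 and 126.2 kb.

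The 10 gaps whose shorter flanking LAD was longest give the clearest examples of single genes in lamina-bound surroundings. The top gap, chr1:143582047-143804545, lay between LADs of 4.11 and 5.95 Mb and held 5 protein-coding genes. They were Cdc73 (a subunit of the Paf1 transcription elongation complex), B3galt2 (a galactosyltransferase), Glrx2 (a glutaredoxin), Ro60 (a protein that binds misfolded noncoding RNA) and Uchl5 (a deubiquitinase of the proteasome). The second gap, chr12:91779954-91902453, had LADs of 4.29 and 3.77 Mb beside it and enclosed Sel1l, which is required for degradation of misfolded proteins of the endoplasmic reticulum, and the first 6.48 kb of Ston2. Jag1, a ligand of Notch, lay in chr2:137016978-137121976, together with the last 64.4 kb of Slx4ip, which otherwise lay in the LAD. Flrt2, a membrane protein with leucine-rich repeats, occupied 93.2 kb of the 157.5 kb of chr12:95674942-95832440. Fancl (a ubiquitin ligase of DNA crosslink repair) and Vrk2 (a kinase) met at their 3′ ends in chr11:26420590-26610589, with the start of Fancl in the LAD. Parp8 (of the ADP-ribosyltransferase family) covered 115.5 kb of chr13:116910472-117052971 and extended into the LAD.

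Other gaps among these 10 differed in content. In chr5:57664630-57859628 only the 5′ part of Pcdh7, a protocadherin of 417.1 kb, lay in the gap, over 143.5 kb, and the rest continued into a LAD of 5.86 Mb. The gap chr6:76709405-76784404 overlapped only the long noncoding RNA Gm38836. The gap chr3:113408252-113498251 overlapped no annotated gene and lay between the pancreatic amylase genes Amy2a2 and Amy2a1, which were in the LADs. The amylase genes are near-identical copies, and how their reads were placed is not given in the sources used here.

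**Figure D2:**
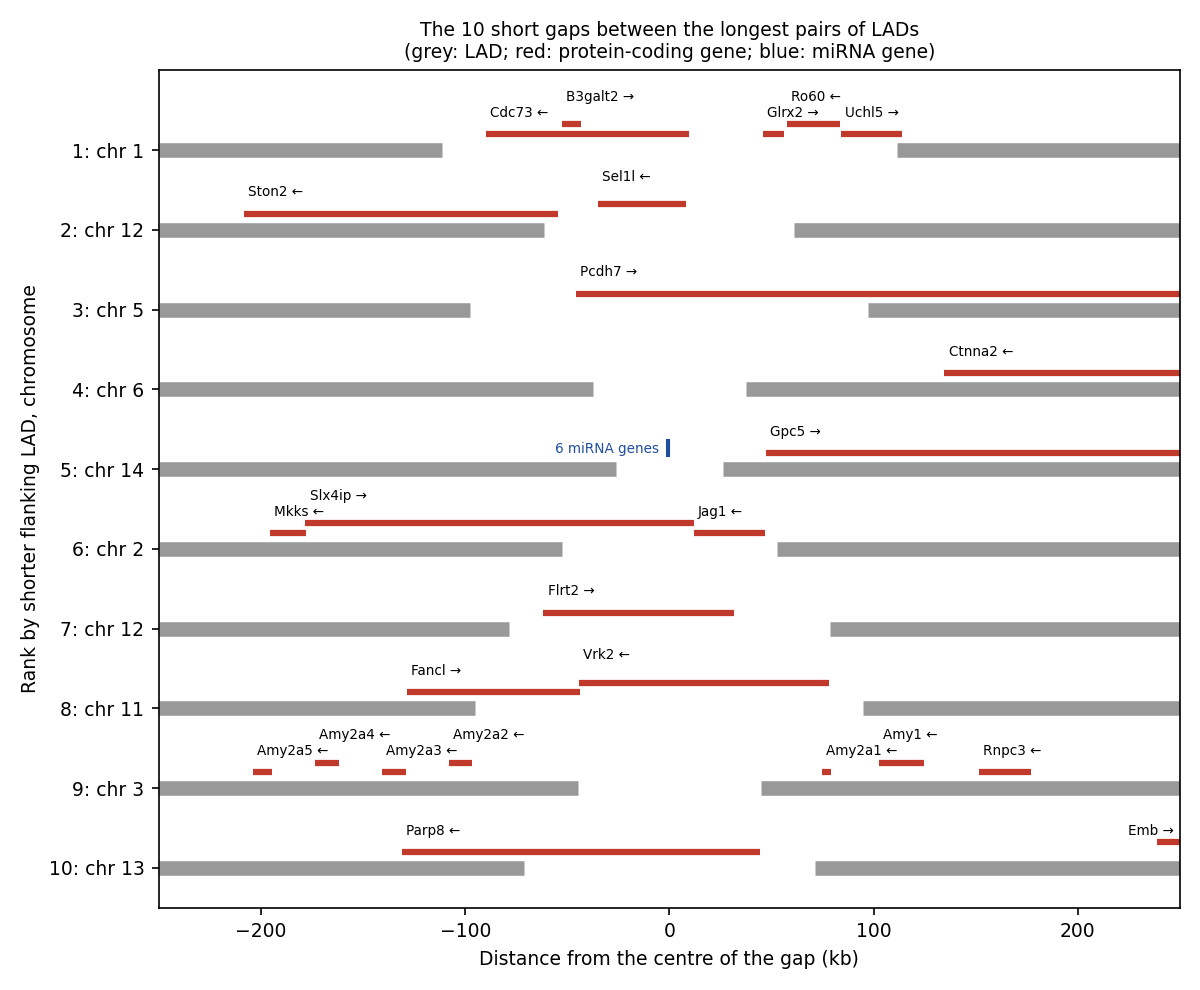
The 10 short gaps between the longest pairs of LADs, ranked by the shorter flanking LAD, with distance from the centre of the gap in kb on the horizontal axis. Grey bars are LADs, red lines protein-coding genes with their direction of transcription, and blue ticks microRNA genes. The rank 1 gap holds 5 protein-coding genes, and the rank 5 gap on chromosome 14 holds 6 microRNA genes and none that code for protein.

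Some islands had nearly the extent of 1 gene. The Jaccard index, the bases shared by gene and gap over the bases in either, reached at least 0.5 in 63 gaps (12.1%), and its median was 0.278 over the gaps that touched a protein-coding gene. The rule bounds the gap length, which enters this index, and no share over longer gaps is available as a background. The highest value, 0.934, belonged to Sash1, a signalling scaffold of 223.4 kb in a gap of 235.0 kb on chromosome 10 (8708553 to 8943552). The border lay 2.06 kb inside its 5′ end and 13.7 kb from its 3′ end. Pot1a, which protects telomere ends, measured 65.3 kb in a gap of 70 kb on chromosome 6 (25739566 to 25809565) and had an index of 0.933. Adgrl2, an adhesion receptor of 173.5 kb, followed with 0.910 in a gap of 180.0 kb on chromosome 3 (148820640 to 149000638). Next came Smco4 (0.878), Epb41l3 (0.858), Stt3b (0.850), Ccdc50 (0.841), Pgm1 (0.812), Sema6a (0.803) and Ano6 (0.786). Stt3b is a catalytic subunit of N-glycosylation, Epb41l3 links the membrane to the cytoskeleton, Sema6a is a guidance molecule, and Ano6 scrambles membrane lipids. The lengths of all 519 short gaps were multiples of 2.5 kb or 1 bp less, so the list resolves borders no finer than that step.

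The reverse arrangement, an island inside a gene, was also present. In 49 gaps the interval lay wholly within a protein-coding gene, 40 genes in all with a median length of 656.5 kb. Macrod2, the longest at 1998 kb, and Magi2, a synaptic scaffold of 1485 kb, each enclosed 3 such gaps. Ctnna3, Lrmda, Enox1 and Adgrv1 enclosed 2 each. These genes were named for enclosing more than 1 such gap, after their values were seen. Among 207 gaps without a protein-coding midpoint, 102 overlapped a gene whose midpoint lay elsewhere.

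Of 890 overlaps between a protein-coding gene and a short gap, the gene lay wholly inside the gap in 533 (59.9%), crossed 1 border in 308 (34.6%) and spanned the gap in 49 (5.51%). For longer gaps, 97.3% of 14808 overlaps were of genes wholly inside. The 533 were 81.5% of the 654 genes with their midpoint in a short gap, a choice that favours containment. A start site was available for 521, and in 479 of these (91.9%) it was in the gap, which the midpoint favours as well. The genes had a median length of 23.3 kb (quartiles 10.2 and 51.8 kb), against 10.3 kb in LADs (1.1 and 46.9 kb) and 19.1 kb in longer gaps (7.6 and 45.4 kb). Of 245 crossings of 1 border of a short gap by a gene with a known start (some genes crossed more than 1 gap), 133 (54.3%) had the start on the gap side. For longer gaps this was 53.2% of 308 crossings, so the share at short gaps was near that background.

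Protein-coding gene bodies covered 47.6% of the bases of short gaps, 27.9% of LADs and 53.6% of longer gaps. Within the gaps this share was highest around the middle, with gaps cut into 10 equal bins: 52.3% in the middle 2 bins and 40.2% in the first and last bins. In the first 20 kb of the flanking LADs it was 38.3% on the left and 37.1% on the right. Start sites of protein-coding genes numbered 5.54 per Mb in the first and last bins, 7.60 per Mb in the middle 2 bins, 8.35 per Mb in the inner 4, 7.10 per Mb in the outer 4 and 4.04 per Mb in the adjoining 20 kb of LAD. Single bins varied, with 6.82 per Mb in the fifth and 9.24 in the ninth. Start sites were known for 81.7% of protein-coding genes off chromosome 18 and none were used on it, while its bases were counted, so these densities are too low throughout. A known start site was present in 279 of the 501 gaps off chromosome 18 (55.7%), and the one nearest the centre lay at a median of 21.5 kb from it, in gaps with a median of 142.5 kb.

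**Figure D3:**
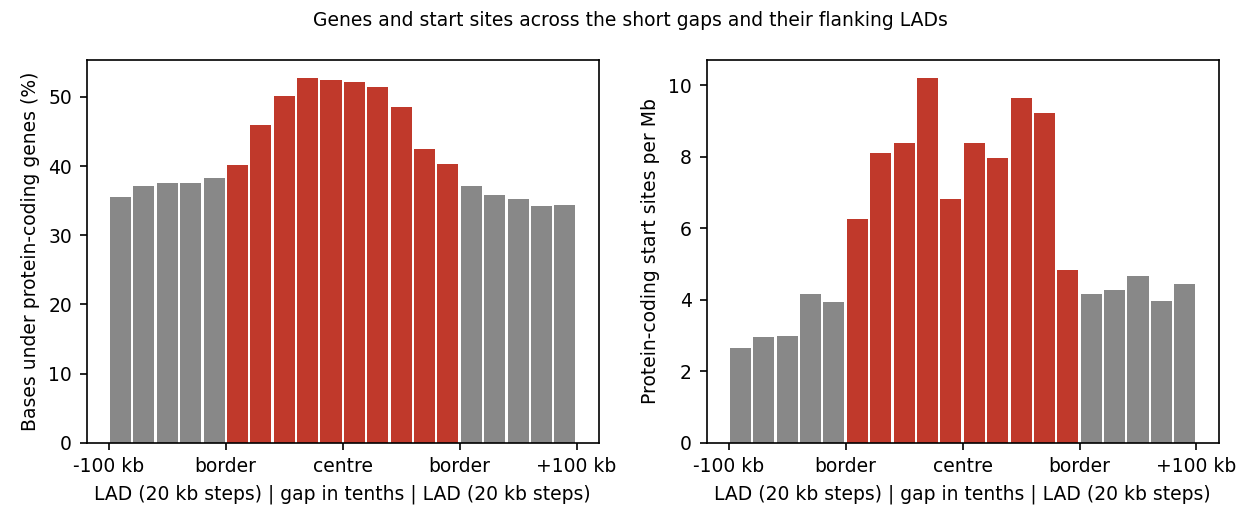
Share of bases under protein-coding genes (left, percent) and protein-coding start sites per Mb (right) across the 519 short gaps. Red bars are the 10 equal bins of the gap length and grey bars are 20 kb steps into the flanking LADs, counted only where the LAD is long enough. Both measures are lower in the LADs than in the middle of the gaps, where genes cover 52.3% of the middle 2 bins.

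Promoters of island genes had a CpG content close to that of genes in longer gaps. A promoter was called CpG-rich when its ratio of observed to expected CpG was at least 0.6 and its GC content at least 55%. Each promoter was placed by the midpoint of its gene, and 479 of the 521 start sites of short-gap genes lay in the gap itself. On the 18 autosomes with promoter sequences, 269 of 521 promoters of genes with their midpoint in short gaps were CpG-rich (51.6%), against 42.7% of all 16457. In LADs the share was 13.9% of 3880 and in longer gaps 51.4% of 11552. Leaving olfactory and vomeronasal receptors out of the LADs moved their share to 19.6%. The median promoter held 18 CpG dinucleotides in short gaps, 2 in LADs and 18 in longer gaps, and the median ratios were 0.708, 0.198 and 0.697. Over chromosomes the share of CpG-rich promoters was 54.3% ± 17.3 (SD, n = 18) in short gaps and 15.8% ± 6.69 in LADs, and it was higher in the gaps on all 18. It was higher than in longer gaps on 11. The lowest value in short gaps was 21.1% of 19 promoters on chromosome 17, and the highest 93.3% of 15 on chromosome 16. In the gaps with at least 500 kb of LAD on both sides it was 60.3% of 131.

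**Figure D4:**
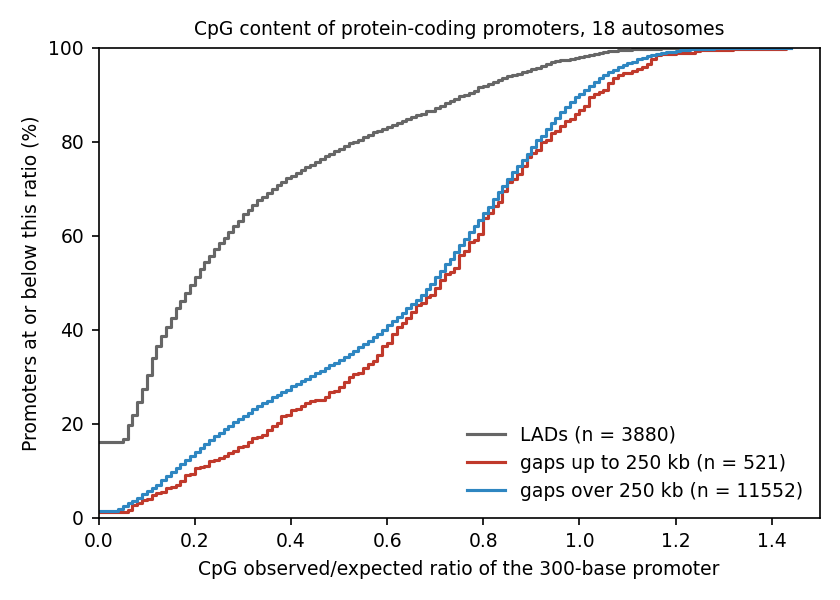
Cumulative share of promoters (vertical axis, percent) at or below each ratio of observed to expected CpG (horizontal axis) for protein-coding genes on 18 autosomes. Promoters are placed by the midpoint of their gene. The curve for gaps up to 250 kb (521 promoters) runs close to that for gaps over 250 kb and to the right of the curve for LADs (3880 promoters), with medians of 0.708, 0.697 and 0.198.

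Short motifs in the same 300 bases were also closer between short and longer gaps than between short gaps and LADs. All were searched as exact letters on both strands, with promoters again placed by the midpoint of their gene. GGGCGG, a GC box, was present in 56.4% of promoters in short gaps, 55.8% in longer gaps, 19.5% in LADs and 47.3% of all. CCGGAAG, which ETS factors bind, was in 18.4%, 14.5%, 4.18% and 12.3%, in the same order. It reached 25.2% of 131 where both flanking LADs were at least 500 kb. CACGTG, an E-box, was in 11.1%, 9.15%, 3.89% and 7.97%, and the palindromic NRF1 motif in 2.5%, 1.66%, 0.361% and 1.37%. TATAAA, the TATA box, was more frequent in LADs, with 8.83% in short gaps, 9.55% in longer gaps, 26.6% in LADs and 13.5% of all. CCAAT differed less, with 36.5%, 38.4%, 41.6% and 39.1%. Apart from the TATA box and CCAAT, the motifs contain CpG and are therefore not independent of the CpG ratio. Head-to-head start sites, with another gene starting on the other strand within 1 kb upstream, belonged to 78 island genes (15% of 521). The share was 11.8% of all 16457 start sites, 3.89% in LADs and 14.3% in longer gaps.

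Gene families divided between island and domain in different ways. Of 5374 protein-coding genes in a LAD or a short gap, 12.2% sat in the gap, although gaps held 5.64% of the bases. Without olfactory and vomeronasal receptors the share was 15.9% of 4069. Of 13 lists of general cell function, pooled, 82 members lay in a LAD or short gap and 40 of these (48.8%) in the gap. Of all 936 genes in these lists, 805 lay in longer gaps and 42 in LADs, and the 40 were 4.27%, against 3.16% of all protein-coding genes. For 9 lists of receptors, channels, adhesion molecules and other tissue-restricted genes the gap held 14 of the 1572 in either place (0.891%). Without the 1305 olfactory and vomeronasal receptors, the other 7 lists had 8 of 267 (3.0%). The lists were pooled this way after their counts were known, and the shares are a description. Below, the members said to lead a list are those whose gap has the longest shorter flanking LAD.

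Subunits of mitochondrial machines were among the island genes. Of 10 mitochondrial ribosomal protein genes in a LAD or short gap, 6 were in gaps, led by Mrpl39, Mrpl32, Mrpl1 and Mrpl44. These 6 were 7.69% of the whole list, against 3.16% of all protein-coding genes. Mrpl39 shared the gap chr16:84701900-84876898, beside a LAD of 4.22 Mb, with Atp5j (a subunit of ATP synthase), Gabpa (an ETS factor) and Jam2. Mrpl32 lay with Psma2, a proteasome subunit, in chr13:14580796-14668295. The list of respiratory chain and ATP synthase genes had 6 of 12 in gaps (6.45% of the whole list), led by Atp5j, Ndufaf5 (an assembly factor that its symbol brings into the list), Atp5e and Ndufb6. Psmd6 and Psma2, the only 2 of 50 proteasome genes in a LAD or short gap, were in gaps, and the other 48 lay in longer gaps.

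Enzymes of RNA and of ubiquitin gave further members. All 5 DEAD or DEAH box helicases counted in a LAD or short gap were in gaps (9.8% of the whole list of 51), led by Dhx36, Ddx24, Dhx32 and Ddx58. Dhx36, which unwinds G-quadruplexes, lay in chr3:62425913-62600912 between LADs of 935.0 and 902.5 kb. Among ubiquitin ligases and deubiquitinases, 11 of 27 were in gaps (7.14% of the whole list), led by Fbxo8, Fbxo30, Usp25 and Ube2e3. Usp25 was the only protein-coding gene of chr16:76971924-77084423, and Ube3a, the ligase affected in Angelman syndrome, the only one of chr7:59212440-59342439, between LADs of 395.0 kb and 1.88 Mb; Ube3a was named after its value was seen. Translation factors had 3 of 4 in gaps (Eif3j2, Eif3f and Eif5a2), vesicle coat and tethering proteins 4 of 8 (Snx14, Snx7, Sec61g and Vps35l), Rab GTPases 1 of 4 (Rab21), RNA polymerase subunits 1 of 2 (Polr3g) and cytosolic ribosomal proteins 1 of 3 (Rpl22l1). Of the whole lists these were 4.41%, 3.15%, 1.54%, 3.57% and 1.23%, near or below the 3.16% of all protein-coding genes except for translation factors. Splicing factors (0 of 3), cyclins and their kinases (0 of 2) and aminoacyl-tRNA synthetases (none in either place) had no member of the list in an island. Lists were drawn by the start of the symbol and are not complete: Ccnh, a cyclin, and Ptbp2, a splicing regulator, fell outside them and lay in short gaps. Both were named after their values were seen.

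Zinc finger genes contributed the most members of any list. Of 456 genes, 31 (6.80%) lay in 17 short gaps and 112 in LADs, so 21.7% of the 143 in either place were in gaps, against 12.2% of all genes. They were led by Zfp949, Zfp619, Zfp654 and Zfp160. Several shared an island. Zfp51, Zfp52, Zfp53, Zfp54 and Zfp948 had their midpoints in chr17:21429021-21586520, and Zfp58, Zfp87, Zfp748, Zfp729b and Zfp874b in chr13:67450629-67618127. These clusters were named after their values were seen. Genes of such clusters are related in sequence, so they are not independent members.

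Developmental regulators were found both as the only protein-coding gene of an island and beside others. Of 18 Fox, Sox, Tbx and Hox genes in a LAD or short gap, 6 were in gaps (5.45% of all 110, against 3.16% of all protein-coding genes). Sox21 lay in chr14:118105948-118255946, beside a LAD of 3.03 Mb. Foxd2 and Foxe3 shared chr4:114895560-115118059 with 4 other genes. Sox9, which directs cartilage and testis development, was the only protein-coding gene of chr11:112760317-112877816, between LADs of 3.06 Mb and 110.0 kb, and was named after its value was seen. Tbx20 lay between LADs of 132.5 and 62.5 kb. Among Fgf, Wnt and Bmp ligands, 2 of 7 were in gaps (4.08% of all 49), Bmp3 and Wnt5a.

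Tissue-restricted families were counted by their genes in a LAD or short gap; of all protein-coding genes there, 12.2% were in the gap. Olfactory receptors had 3 of 979 in gaps (Olfr1441, Olfr1344 and Olfr455) and vomeronasal receptors 3 of 326 (Vmn1r233, Vmn1r32 and Vmn1r21). No listed member of the cadherins and protocadherins (symbols with Cdh or Pcdh, 0 of 54), the cytochromes P450 (0 of 52), the glutamate and GABA receptors (0 of 27) or the sodium and calcium channels (0 of 12) had its midpoint in a gap. Dchs1 and Dchs2, cadherins outside that list and named after their values were seen, did. Potassium channels had 1 of 33 (Kcna4), and most genes of both channel lists lay in longer gaps (55 of 92 and 24 of 39). Serpins had 3 of 38 (4.84% of all 62; Serpine2, Serpina12 and Serpina3n). C-type lectins and killer cell receptors had 4 of 51 (6.45% of all 62, against 3.16% of all protein-coding genes): Klrd1 and Klre1 in chr6:129509238-129604236, and Klrb1b and Klrb1c in chr6:128729240-128864239. Solute carriers, which lay mostly in longer gaps (293 of 362), had 11 of 54 (20.4%), led by Slc15a4, Slc35d1, Slc39a10 and Slc12a2. These 11 were 3.04% of the whole list, against 3.16% of all protein-coding genes.

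Of the matrix genes in a LAD or short gap, a share near the 12.2% of all genes was in islands. Matrix proteases had 5 of 37 in gaps (13.5%), led by Adamts7, Mmp21, Adam8 and Adamts15, and collagens 1 of 10, Col12a1. Of the whole lists these were 6.17% of 81 and 2.38% of 42, against 3.16% of all protein-coding genes. Of 30 fibroblast markers, 28 lay in longer gaps and 1, Tcf21, a mesenchymal transcription factor, in a short gap (chr10:22638509-22833508). None of the 22 genes of the nuclear lamina and envelope had its midpoint in a short gap or a LAD, although Syne1, which links the envelope to the cytoskeleton, spanned a gap of 62.5 kb.

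**Figure D5:**
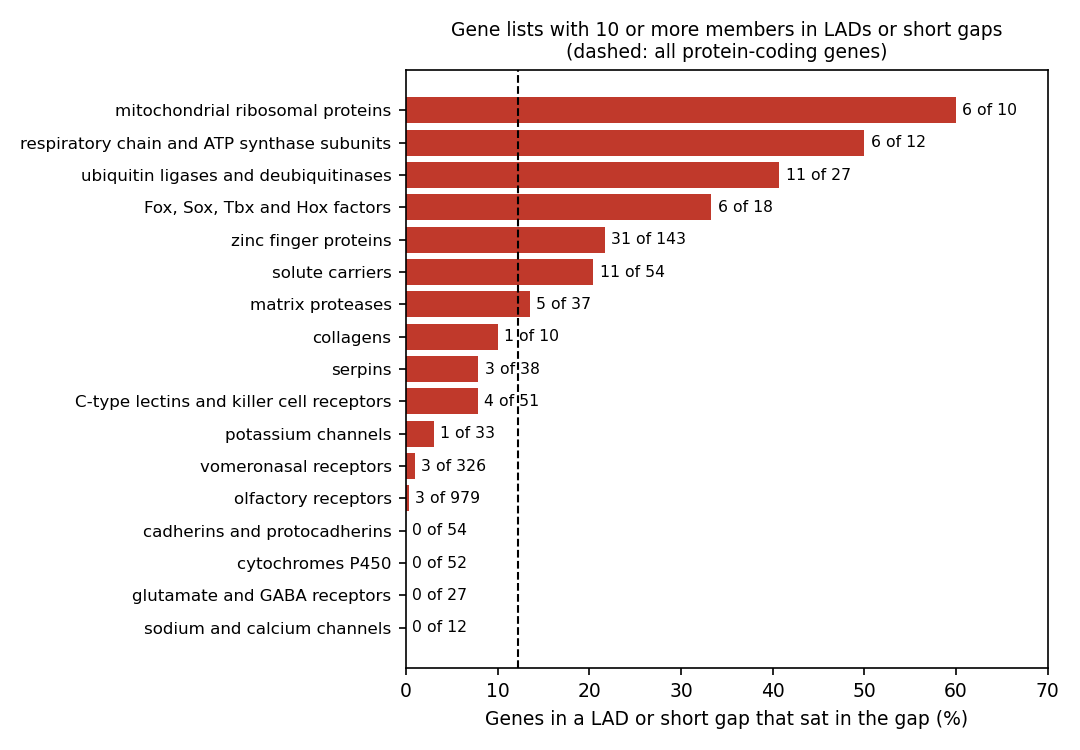
Share of the genes in a LAD or a short gap that sat in the gap (horizontal axis, percent) for the lists with 10 or more such genes, with counts beside the bars. The dashed line is the 12.2% of all protein-coding genes. Mitochondrial ribosomal proteins (6 of 10) are at the top, and 4 tissue-restricted lists have no gene in a gap.

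A few islands were crowded. The fullest, chr7:139912185-140127183, measured 215.0 kb and held 12 protein-coding genes, among them Utf1, Adam8, Tubgcp2, Echs1 and Paox. In chr6:42212014-42447012, 11 genes combined the bitter taste receptors Tas2r144, Tas2r143, Tas2r135 and Tas2r126 with broadly used genes such as Casp2 and Zyx. A gap of 242.5 kb on chromosome 8 (4163195 to 4405693) held 10 genes, including Map2k7, Timm44 and Elavl1, and one of 215.0 kb on chromosome 6 (136769215 to 136984213) held 10, including Wbp11 and the calcification inhibitor Mgp. The fifth, chr6:56696968-56939467, had 6 genes, among them Lsm5 and Fkbp9, between LADs of 1080 kb and 572.5 kb. It was the longest of 7 gaps with 6 genes.

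Noncoding genes were also counted. Of 12408 long noncoding RNA genes 372 (3%) had their midpoint in a short gap, and of 1136 microRNA genes 35 (3.08%), both near the 3.16% of protein-coding genes. The microRNA genes lay in 24 gaps, and 32 of them had a mature sequence in the table used. Mirlet7i lay in chr10:122973192-123123190, with at least 1320 kb of LAD on either side, and Mir155 lay in the Mrpl39 gap on chromosome 16. Mir99b, Mirlet7e and Mir125a lay together in chr17:17739033-17914031. Pseudogenes were fewer, with 220 of 8884 (2.48%), although 50.5% of them were in LADs.

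The 105 gaps that touched no protein-coding gene were shorter, with a median of 95.0 kb against 130.0 kb for the others, and their shorter flanking LAD had a median of 152.5 kb against 208.7 kb. In 60 of them another gene was annotated, and 45 overlapped no gene. Long noncoding RNA genes were found in 37 of the 105, pseudogenes in 28, small nuclear RNA genes in 6 and microRNA genes in 3. The sequence of the gaps was not analysed here, so unassembled or repeated bases in them were not counted.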

How the data were processed

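The authors deposited LAD start and end positions on mm10 as 1 list, merged by its name; per the submitters' processing notes, Bowtie2 was used, with no role given. The deposited score was 0 on all 1437 lines. The domain caller, its threshold and whether IgG or the spike-in entered are not given in the sources used here. Read depth is unknown. Per the labels' protocols, reactions used 500000 cells.

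Gaps run from the end of a LAD to the start of the next; positions are counted from 1. Genes of RefSeq GRCm38.p6 were placed by midpoint. Start sites and promoters, 1 a gene (nearest its 5′ end), came from a RefSeq table matched to 81.7% of 20154 protein-coding genes off chromosome 18 (81.8% of 637 in short gaps); chromosome 18 promoters were not analysed here. Genes were named by rules: the fullest, most embedded, shortest and most gene-shaped gaps, runs, and at most 4 per list. The members and lists were chosen with earlier results of these data known, and the pooling of lists after their counts. No test was made, since no value has a replicate. Placement was tested on simulated data. Some genes that the rules name are not reported here. Python 3.11.15, pandas 2.3.3 and matplotlib 3.10.9 were used.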

Additional observations from a re-analysis of the deposited data

How the results depend on the processing

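Of 51 alternative values, 21 stayed within the counting interval (or 1.5 times, for counts) of the reported value and 30 moved; alternatives on pooled lists and on the choice of start were added after seeing the data. With gaps of at most 100 kb, the gaps numbered 195, 70.8% touched a protein-coding gene, and 136 genes lay in them, 2.8% of those in LADs or gaps; pooled lists gave 10.6% (general) and 0.447% (tissue-restricted). At 500 kb, 83.3% of gaps touched a gene, with 1337 genes (22.1%), and the pooled lists gave 67.2% and 2.14%. With both flanking LADs at least as long as the gap there were 327 gaps and 391 genes (7.65%), and 0.384% for tissue-restricted lists; with both at least 100 kb the share of genes was 9.02%. The counts differ because fewer or more gaps entered; the cause of the other shifts was not tested. Counting genes wholly inside gave 51.1% of gaps, 7.57 genes per Mb and 11% of genes; a known start site in the gap gave 53.8% and 7.99 per Mb (55.7% and 8.27 off chromosome 18, which has none), values lowered by genes without one; any overlap gave 12.2 per Mb and 15.5%, and for the share of gaps is the reported count. All annotated genes gave 91.3%, 1370 genes, 19.5 per Mb and 8.57%. CpG-rich promoters were 38.6% at a ratio of 0.75 and 63.3% without the GC minimum; with the most CpG-rich start of each gene, the LAD share was 15.3%. No paired analysis was possible because the list holds no value per library; for the same reason no replicate of Lamin B1 could be left out in turn. Depth, domain strength and the reproducibility of single gaps are unknown, and intervals behind the 21 cover counting error only.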

Other observations

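Antigen receptor J and V segments had different positions. Of 82 J segments, 53 had their midpoint in a longer gap, 13 (15.9%) in a short gap and 16 (19.5%) in a LAD, whereas of 394 V segments 1 (0.254%) was in a short gap and 336 (85.3%) in a LAD. Segments of 1 cluster are neighbours and not independent, and the 13 J segments in short gaps may all come from 1 gap. The gap chr6:41512016-41579515 alone held 20 gene midpoints, of which 1, Prss2, was protein-coding. Of 391 transfer RNA genes, 3 (0.767%) were in short gaps and 27 (6.91%) in LADs. Of protein-coding genes, 3.16% were in short gaps and 22.8% in LADs.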
